A study of Mus musculus with 4 samples.

Results

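Heart ventricles of mice that lack the nucleotide receptor P2Y6 (KO) were compared with wild-type (WT) ventricles after saline, the condition without provoked hypertrophy. The comparison describes which transcripts differed between 1 KO and 1 WT library. The members are the 13041 genes with a mean of at least 1 CPM (reads per 1000000 reads of the library) over the 4 libraries, out of 46603 genes in the deposited table. The mice were C57Bl6/J aged 8 to 12 weeks. The WT saline and the P2Y6-null saline group received daily intraperitoneal saline for 7 days, and a WT and a P2Y6-null group received isoproterenol, a beta-adrenergic agonist, at 50 mg/kg/day on the same schedule. Each group is 1 library of ventricle mRNA, and whether a library holds 1 heart or several pooled hearts, how the null allele was built, and whether WT mice were littermates, the sources used here do not say.

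P2Y6, encoded by P2ry6, is a G protein-coupled receptor for the nucleotide UDP, which cells release when stretched or injured. It couples mainly to Gq and phospholipase C, and in heart muscle to G12/13 as well. Signals of this kind feed the gene program of hypertrophy, in which ventricles return to fetal isoforms and secrete natriuretic peptides, and the program of matrix deposition by fibroblasts.

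The saline libraries held 25637369 reads (WT) and 22965087 reads (KO) in the listed genes, and the isoproterenol libraries 20721472 (WT) and 18771198 (KO). With 1 library a group, KO against WT under saline has neither a replicate check nor a p-value. Each fold is the ratio of whole reads recovered from the CPM, scaled by TMM (a trimmed mean over genes), with a 95% counting interval in parentheses. The interval covers counting error only and compares the libraries, not the genotypes. Genes were called higher or lower where both ends of the interval passed 1.5-fold. All 4 libraries had the transcripts of male hearts, with 4 sex-linked genes tested and none called, and 1 to 5 reads of Xist. The ventricular myosin Myh6 stood at 30569 CPM in WT and 29949 CPM in KO saline. In bulk tissue, fewer cells of a type and less RNA per cell cannot be told apart.

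P2ry6 itself stood at 5.11 CPM (131 reads) in the WT saline library and at 0.566 CPM (13 reads) in KO, 8.44-fold lower (4.93 to 16.8). Beyond it the saline libraries were close to each other. The median absolute log2 ratio over all genes was 0.11, and 90% of log2 ratios fell between -0.37 and 0.34. Of the 13041 genes 58 were called (0.445%), 32 higher (0.245%) and 26 lower (0.199%) in KO. With counting error left aside, 436 genes had a ratio beyond 1.5-fold, the called genes included. The called genes were mostly low: their median WT level was 6.32 CPM for those higher and 3.0 CPM for those lower, against 17.7 CPM for all genes. All 26 lower and 26 of the 32 higher genes are protein coding, and 0 of 277 long noncoding genes (lincRNA and antisense types) were called.

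**Figure D1:**
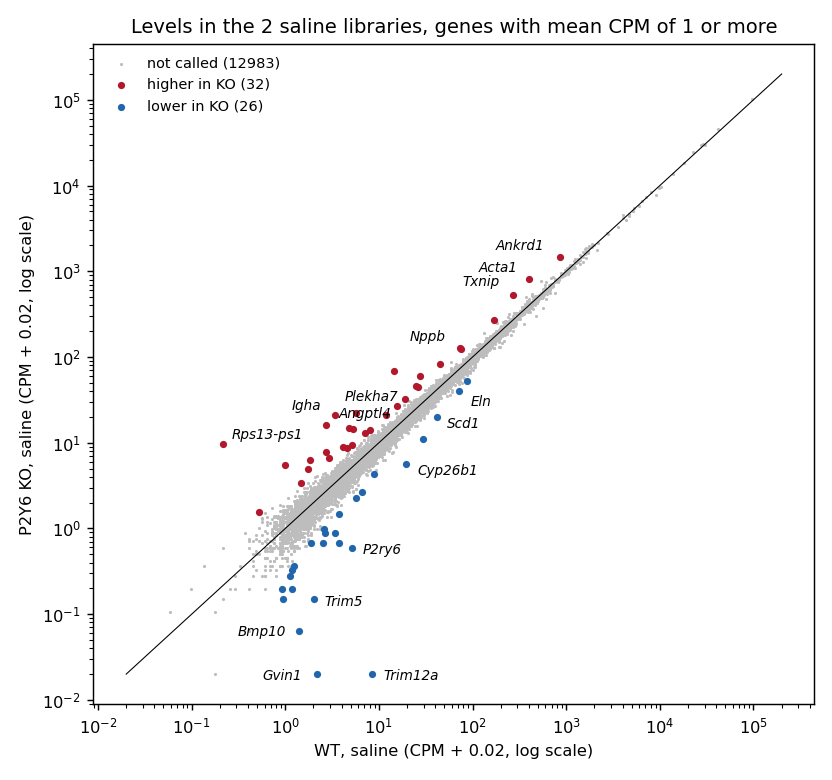
Level of each of 13041 genes in the WT saline library (horizontal) and the KO saline library (vertical), as deposited CPM plus 0.02 on log axes, with the 32 genes called higher in red, the 26 called lower in blue and a line at equality. Genes at 0 CPM in KO, Trim12a and Gvin1, lie on the lower edge, and the called genes above 100 CPM in both libraries (Ankrd1, Acta1, Txnip and Ptgds) all lie above the line.

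Among the genes of the hypertrophy and fetal program, 3 of the 18 tested were called higher in KO and 1 lower, against 0.245% and 0.199% of all genes, and 2 more list members had a mean under 1 CPM. The median log2 ratio of the list was 0.12, against 0.00 for all genes (-0.05 with total-count scaling, which took the list to 0.07). Acta1, the skeletal actin that the stressed ventricle makes again, stood at 398 CPM in WT and 807 CPM in KO saline, and at 481 and 1682 CPM under isoproterenol. The KO library was higher in both pairs, by 2.09-fold (2.04 to 2.15) under saline. Ankrd1, a titin-binding ankyrin repeat protein of mechanical stress, stood at 867 CPM in WT and 1461 CPM in KO saline, 1.74-fold higher (1.71 to 1.77). Nppb, which encodes the natriuretic peptide BNP, stood at 73.3 and 127 CPM, 1.8-fold higher (1.7 to 1.91).

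The other members were not called, apart from Myl4, and lay on both sides of equality. In all 11 of the 18 ratios were above 1, with 8 intervals wholly above 1 and 5 wholly below. The atrial peptide gene Nppa stood at 68.5 CPM in WT and 65.3 CPM in KO saline, 1.01-fold lower (0.947 to 1.09). The slow myosin Myh7 was at 1.25-fold (1.2 to 1.29) and the Xin repeat protein Xirp2 at 1.41-fold (1.37 to 1.44), with intervals above 1 but short of the threshold. Myl4, the atrial myosin light chain of the fetal ventricle, was called lower, from 88.1 to 52.4 CPM, by 1.63-fold (1.52 to 1.74). Its atrial partner Myl7 went from 77.0 to 49.1 CPM, 1.52-fold lower (1.41 to 1.63) and not called. Growth signalling of the physiological kind had 0 of 17 tested genes called (median log2 ratio 0.00), against 0.445% of all genes. Gq and G12/13 signalling, the pathway downstream of P2Y6, had 0 of 22 called (median 0.09, or 0.04 with total-count scaling).

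The 3 higher program genes are shown by their promoters, since they carry the higher calls of the program and members that were called together can be compared by sequence. Each run is the RefSeq window (GRCm38.p6) from 250 bases before to 50 bases after the annotated start, on the gene's strand, with TATAAA in capitals. The windows are chr8:123894726-123895025 (minus) for Acta1, chr4:147985650-147985949 (plus) for Nppb and chr19:36119795-36120094 (minus) for Ankrd1.
Acta1: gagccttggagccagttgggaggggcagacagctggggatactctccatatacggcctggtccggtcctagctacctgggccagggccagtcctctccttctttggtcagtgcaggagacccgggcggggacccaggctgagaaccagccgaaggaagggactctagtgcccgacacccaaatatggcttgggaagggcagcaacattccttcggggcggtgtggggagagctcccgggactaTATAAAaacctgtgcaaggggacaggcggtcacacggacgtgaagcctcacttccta
Nppb: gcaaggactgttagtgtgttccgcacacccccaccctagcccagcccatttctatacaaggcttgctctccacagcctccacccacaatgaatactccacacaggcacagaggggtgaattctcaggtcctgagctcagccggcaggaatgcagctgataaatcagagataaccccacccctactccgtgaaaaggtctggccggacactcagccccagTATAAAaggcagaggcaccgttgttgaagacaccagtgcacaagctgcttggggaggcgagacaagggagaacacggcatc
Ankrd1: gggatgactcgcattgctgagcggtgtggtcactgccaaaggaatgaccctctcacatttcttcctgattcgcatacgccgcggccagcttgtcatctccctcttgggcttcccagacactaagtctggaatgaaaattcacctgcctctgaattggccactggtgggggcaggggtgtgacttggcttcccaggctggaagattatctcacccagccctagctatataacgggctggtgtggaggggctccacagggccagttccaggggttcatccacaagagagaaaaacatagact
The letters TATAAA begin at base -7 from the annotated start in Acta1 and at base -31 in Nppb, and are not in the Ankrd1 window. On either strand TATAAA was in 3 of 20 promoters of higher genes that the table holds (15%) and in 4 of 19 of lower genes (21.1%), against 7.01% of 9717 promoters of tested genes and 14.2% of 27025 promoters in all. The E-box CACGTG was in 2 of 20 (10%) and 0 of 19, against 10.2% of tested genes and 7.24% of all. A direct repeat of AGGTCA with 1 base between its copies, the letters that PPAR and RXR receptors bind, was in none of these 39 windows and in 0.0206% of those of tested genes. None of the 3 motifs contains another, both strands were searched for each, and a match of letters says nothing of binding.

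Targets of the PPAR receptors, which control fatty acid use in the heart, had 3 of 20 genes called higher and 0 lower (0.245% of all genes were higher). Total-count scaling took the median log2 ratio of these targets from 0.16 to 0.12, and the number above 1 from 18 to 14. Angptl4, an inhibitor of lipoprotein lipase, went from 4.80 CPM in WT to 15 CPM in KO saline, 3.23-fold higher (2.63 to 4.01). Txnip, which restrains glucose uptake and binds thioredoxin, went from 270 to 524 CPM, 2-fold higher (1.94 to 2.06). Ucp3, a mitochondrial carrier of the fasted heart and muscle, went from 74.9 to 123 CPM, 1.7-fold higher (1.6 to 1.8). Each of these 3 was highest in the KO saline library of all 4 libraries.

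Below the threshold, Pdk4, the kinase that shuts pyruvate dehydrogenase, went from 537 to 765 CPM, 1.47-fold (1.44 to 1.51), and Cpt1a, the entry enzyme of fatty acid oxidation, was at 1.27-fold (1.18 to 1.35). In all 13 of the 20 intervals of PPAR targets lay wholly above 1 and 0 below, against 11.9% and 11% of all genes. A gene with more reads has a narrower interval, so such counts, here and for the lists below, depend on level as well as on ratio. The enzymes of fatty acid oxidation themselves were near equality, with 0 of 20 called and a median of 0.05. Of these 16 had a ratio above 1, which total-count scaling took to 10. Their intervals lay wholly above 1 for 12 and wholly below 1 for 1, much as for the PPAR targets. Nuclear oxidative phosphorylation (0 of 20, median 0.00), glycolysis (0 of 17, median 0.01) and the 13 mitochondrially encoded genes (0 called, median 0.08) had no calls either. Among all genes 0.445% were called. Thrsp, a regulator of lipogenic enzymes, went from 27.4 to 60.0 CPM, 2.26-fold higher (2.06 to 2.48).

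**Figure D2:**
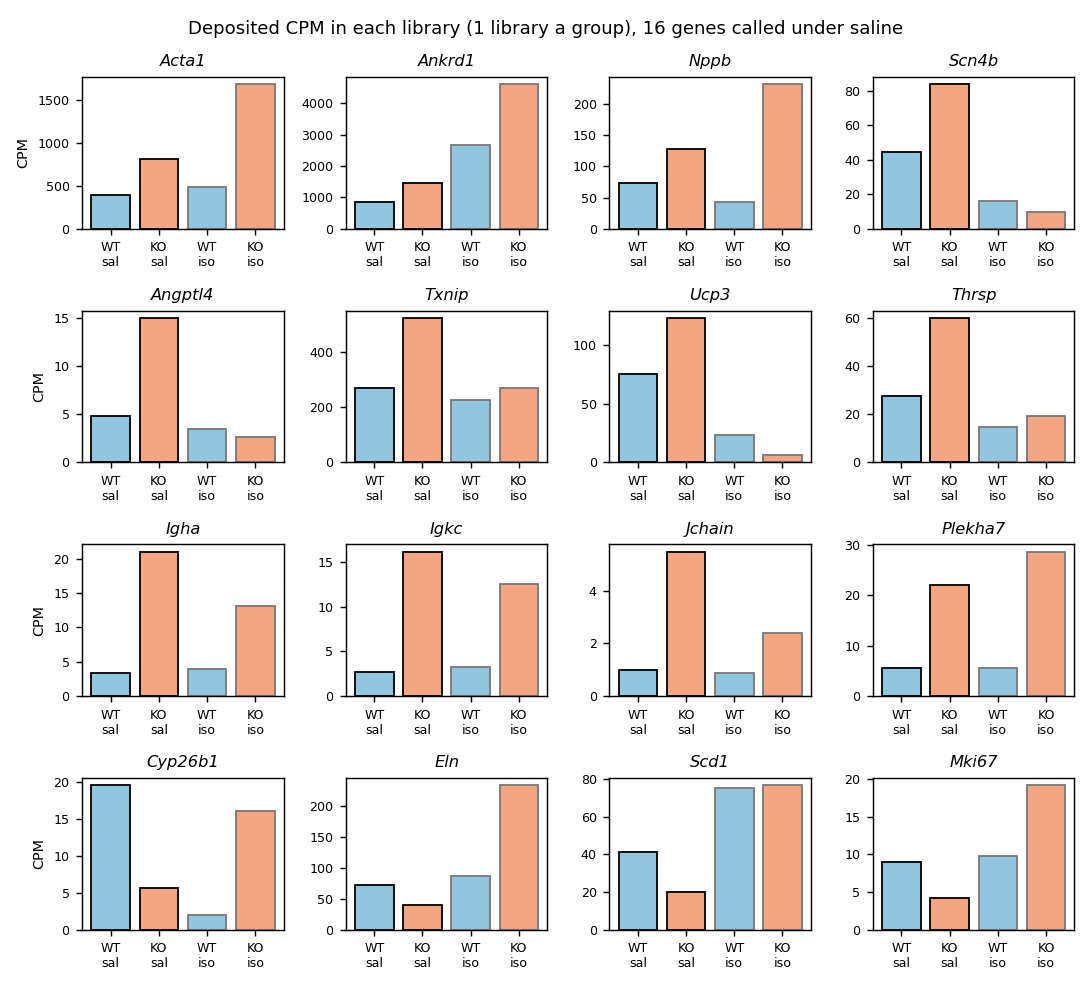
Deposited CPM (vertical, each panel from 0) of 16 genes called under saline, in the WT and KO saline libraries (black outline) and the WT and KO isoproterenol libraries (grey outline), WT in blue and KO in orange, 1 library a bar and so without error bars. Acta1, Ankrd1, Nppb, the immunoglobulin genes and Plekha7 are higher in KO than in WT in both pairs, while Scn4b and Ucp3 are higher in KO under saline and lower in KO under isoproterenol.

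The contractile and electrical machinery had few calls. At the share of all genes called, 0.445%, few or no calls are usual for lists of this size. Adult sarcomere genes had 0 of 16 called and a median log2 ratio of 0.07 (0.02 with total-count scaling), and calcium handling genes 0 of 16 with a median of 0.03 (-0.02 with total-count scaling). Of the sarcomere intervals 11 lay wholly above 1 and 4 wholly below. Ion channels and gap junctions had 1 of 20 called higher, Scn4b, a beta subunit of the cardiac sodium channel, which went from 44.6 to 83.6 CPM, 1.94-fold (1.8 to 2.09). The potassium channel subunits Kcne1 and Kcna5, at 1.52-fold lower (1.22 to 1.9) and 1.48-fold lower (1.3 to 1.69), were not called. Myot, the Z-disc protein myotilin, went from 24.7 to 45.5 CPM, 1.9-fold higher (1.72 to 2.1). Gnas, the stimulatory G protein subunit, was called 1.83-fold higher (1.53 to 2.19) from 7.92 to 14 CPM, the 1 call among 19 beta-adrenergic and cAMP genes. Total-count scaling ended the Gnas call, and the gene overlaps the antisense transcript Nespas and several small annotated genes.

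Genes of the extracellular matrix were mostly lower in KO under saline, by small ratios. All 18 fibrillar and network collagens had a ratio below 1, against 50.5% of all genes, with a median log2 ratio of -0.44, and for 16 of them the whole interval lay below 1, against 11% of all genes. None was called. Col3a1, a fibrillar collagen, went from 478 to 300.1 CPM, 1.54-fold lower (1.497 to 1.59), and became a call with total-count scaling. Col1a1 went from 198 to 132 CPM, 1.45-fold lower (1.39 to 1.52), and the basement membrane collagen Col4a1 from 752 to 557 CPM, 1.31-fold lower (1.28 to 1.33). All were measured in the same pair of libraries and do not count as separate observations.

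Elastic fibre genes had all 17 ratios below 1, with 9 intervals wholly below 1, a median of -0.15 and 1 call. Eln, which encodes elastin, went from 72.2 to 39.8 CPM, 1.75-fold lower (1.62 to 1.9), beside 2 microfibril genes under the threshold, Mfap2 at 1.84-fold lower (1.27 to 2.75) and Mfap4 at 1.54-fold lower (1.37 to 1.73). Matricellular and profibrotic genes had 15 of 19 ratios below 1 and 0 calls (median -0.14), with 5 intervals wholly below 1 and 2 wholly above. Among them the collagen-binding protein Sparc was 1.48-fold lower (1.44 to 1.52) and Fn1, fibronectin, 1.33-fold lower (1.25 to 1.41). The 4 ratios above 1 reached a log2 ratio of 0.22, for Ctgf. The crosslinking enzyme Lox, at 4.84 and 4.66 CPM, and the cytokine Tgfb1, at 21.1 and 20.4 CPM, were level. Proteoglycans and basement membrane genes had 15 of 16 ratios below 1 and 0 calls (median -0.19), with 12 intervals wholly below 1 and 1 wholly above. Under isoproterenol the same lists stood on the other side: 15 of 18 collagens and 16 of 19 matricellular genes were called higher in KO, against 4.26% of all genes, with median log2 ratios of 1.19 and 1.83.

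Fibroblast markers had smaller ratios, mostly in the same direction. Of 12 markers 9 had a ratio below 1, 8 intervals lay wholly below 1 and 0 were called, the median log2 ratio was -0.18, and their summed level was 2726 CPM in WT and 2419 CPM in KO saline. Dcn (508 and 507 CPM), Pdgfra (47.4 and 46.8 CPM) and Tcf21 (7.18 and 7.75 CPM), are the 3 markers with a ratio above 1, and Col1a1, Lum, Mfap5 and Dcn stand in a matrix list as well. Smooth muscle and pericyte markers had 10 of 12 ratios below 1 and 0 calls (median -0.11). Endothelial markers (14, median -0.03) and macrophage markers (17, median -0.08) had 0 calls, against 0.445% of all genes. The part of the number of fibroblasts in the matrix values was not tested.

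Cell cycle genes were lower in KO under saline at low levels. Of 20 genes 18 had a ratio below 1 and 2 were called lower, against 0.199% of all genes, and the median log2 ratio was -0.45. Mki67, the proliferation marker, went from 8.93 CPM in WT to 4.27 CPM in KO saline, 2.02-fold lower (1.59 to 2.59). Ccnb1, cyclin B1 of mitotic entry, went from 31 to 8 reads, 3.21-fold lower (1.51 to 8.45), and its S-phase counterpart Ccna2 was 2.33-fold lower (1.43 to 4.05) and not called. With only genes at a mean of 5 CPM or more the median was -0.21. Called genes outside the list that act in mitosis or DNA repair, picked out after their values were seen, were Ccnf, Tpx2, Nek2, Prc1 and Fignl1, each with 33 reads or fewer in KO. Under isoproterenol 3 of the 20 list genes were called higher in KO, against 4.26% of all genes. In that pair 1 of the 20 had a ratio below 1, against 50.1% of all genes, and the median was 0.76.

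Atrial and trabecular markers had all 11 ratios below 1, against 50.5% of all genes, and 2 lower calls, against 0.199%. These are Myl4 (given above) and Bmp10, a growth factor of the trabecular and atrial wall, which went from 35 reads to 1 read, 20.5-fold lower (5.10 to 1230). The median log2 ratio was -0.44 (-0.33 at a mean of 5 CPM or more), and their summed level was 441 CPM in WT and 337 CPM in KO saline. Sln, the calcium pump regulator sarcolipin of the atria, went from 16.4 to 11.1 CPM, 1.42-fold lower (1.22 to 1.67), and Nppa was level, as given above. Under isoproterenol the atrial list was not lower in KO: 5 of its 11 ratios were below 1, 2 genes were called higher, against 4.26% of all genes, and the median was 0.16. There Bmp10 was 1.91-fold and Myl4 1.26-fold higher in KO, and neither was called. Valve and chondrocyte markers had 6 of 8 ratios below 1 and 0 calls (median -0.55, or -0.19 at a mean of 5 CPM or more), with the cartilage matrix genes Fmod and Cilp2 1.64-fold lower (1.38 to 1.96) and 1.69-fold lower (1.2 to 2.43). Of these 8 markers 4 were called higher in KO under isoproterenol, against 4.26% of all genes, with a median of 0.93. The part of how the ventricles were cut from the atria and valves in these values was not tested.

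Adipocyte genes had 3 of 12 called lower and 0 higher, against 0.199% and 0.245% of all genes, with a median log2 ratio of -0.61. Of the 12 ratios 4 were above 1 and 8 below, with 3 intervals wholly above 1 and 6 wholly below. Those above 1 were Pparg, Plin4, Cidea and Lipe, at log2 ratios of 0.23, 0.21, 0.19 and 0.14. Pck1, the gluconeogenic and glyceroneogenic enzyme, went from 3.35 to 0.871 CPM, 3.66-fold lower (2.27 to 6.4). Cidec, a lipid droplet protein of white fat, went from 2.65 to 0.871 CPM, 2.9-fold lower (1.77 to 5.12). Scd1, the desaturase that makes monounsaturated fatty acids, went from 41.2 to 19.8 CPM, 2.01-fold lower (1.8 to 2.25). Pck1 and Cidec were lower in KO in both pairs, while Scd1 stood at 75.0 and 76.6 CPM under isoproterenol. The fat cell hormone Adipoq was at 1.52 and 1.09 CPM under saline, 1.34-fold lower (0.798 to 2.33), the droplet coat Plin1 at 1.21 and 0.523 CPM, 2.18-fold lower (1.12 to 4.79), and Lep and Retn had a mean under 1 CPM. Fabp4, a fatty acid binding protein that capillaries make as well, stood at 476 and 459 CPM, and the summed level of the list was 781 CPM in WT and 760 CPM in KO, and with only genes at 5 CPM or more the median log2 ratio was 0.14, the other sign. The part of fat tissue around the hearts in these values was not tested.

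Immunoglobulin transcripts were the list with the highest median log2 ratio of the 42. Of 18 genes of plasma and B cells 8 were tested, 4 of them were called higher in KO and 0 lower, against 0.245% and 0.199% of all genes, and the median log2 ratio was 0.99.  Igha, the heavy chain of IgA, went from 3.39 CPM in WT to 21.0 CPM in KO saline, 6.38-fold higher (5.09 to 8.15). The kappa light chain Igkc went from 2.73 to 16.2 CPM, 6.08-fold higher (4.73 to 8.02). The joining chain Jchain, which links IgA and IgM units, went from 25 to 126 reads, 5.73-fold higher (3.77 to 9.33). Ighg2c, an IgG heavy chain, went from 1.83 to 6.18 CPM, 3.46-fold higher (2.49 to 4.96).

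Those are chains of secreted antibody. The IgM chain Ighm was at 13.1 and 14.5 CPM, 1.14-fold (0.98 to 1.34), Ighd at 1.21 and 1.22 CPM, and the plasma cell factor Xbp1, which other cells express too, at 48.4 and 48.9 CPM. Sdc1, a surface marker of plasma cells, had a log2 ratio of -0.21 and was the 1 tested member with a ratio below 1. The other 10 members, among them the plasma cell genes Mzb1, Derl3, Tnfrsf17 and Pou2af1, had a mean under 1 CPM. Of 17 B and T lymphocyte markers 16 had a mean under 1 CPM, Ms4a1 and Cd79a included, and the summed level of that list was 9.67 CPM in WT and 9.49 CPM in KO saline. Under isoproterenol Igha was at 3.96 CPM in WT and 13.1 CPM in KO and Igkc at 3.23 and 12.5 CPM, called higher in KO there too. Jchain was at 0.869 and 2.40 CPM there and Ighg2c at 1.98 and 3.14 CPM, and these were not called in that pair. Both KO libraries were thus above both WT libraries for Igha, Igkc, Jchain and Ighg2c. With only genes at a mean of 5 CPM or more, 5 genes with 2 calls, the list's median was 0.19, below that of skeletal muscle (0.48, 2 genes). The part of plasma cells in the hearts in these values was not tested.

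**Figure D3:**
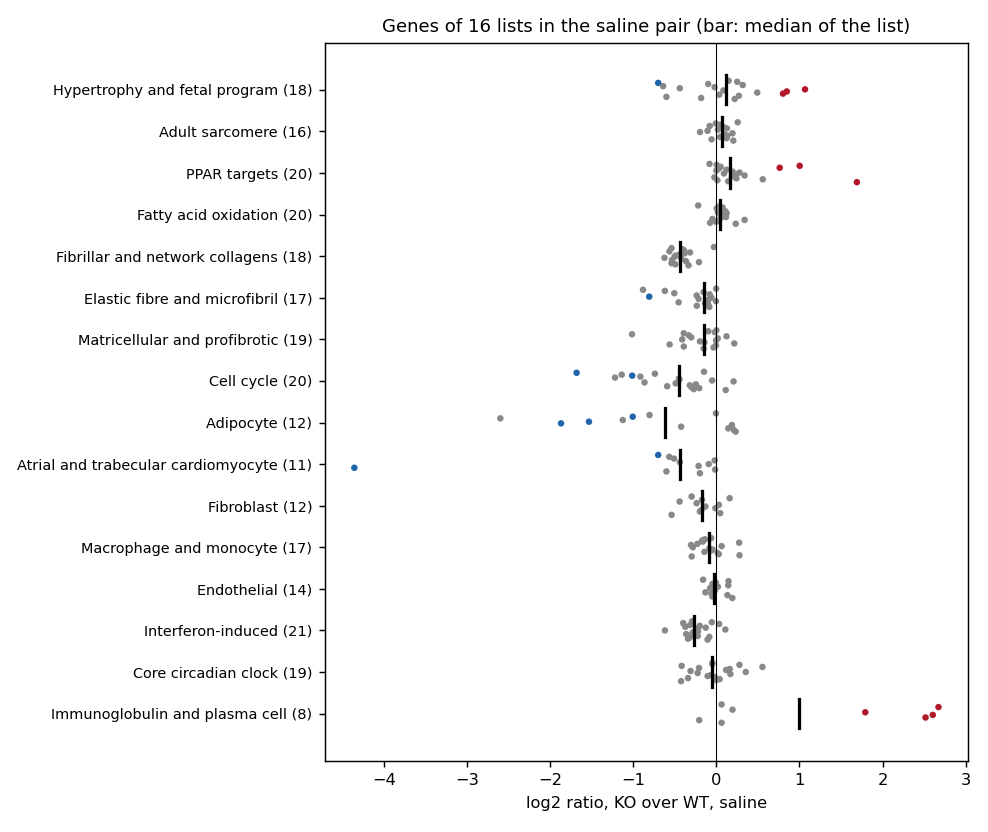
log2 ratio of KO over WT under saline (horizontal) for the tested genes of 16 lists, with the number tested in parentheses, genes called higher in red, called lower in blue and not called in grey, and a black bar at the median of each list. The collagen, elastic fibre and atrial points all lie left of 0, the sarcomere and fatty acid oxidation points lie close to 0, and the immunoglobulin list is split between 4 called genes far to the right and 4 near 0.

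Other regulatory programs had few or no calls, which is usual for lists of this size where 0.445% of all genes were called. Cyp26b1, which breaks down retinoic acid, went from 19.6 CPM in WT to 5.62 CPM in KO saline, 3.36-fold lower (2.77 to 4.12), the 1 call among 12 retinoic acid genes. Over the 12 the median log2 ratio was 0.00, with 5 ratios above 1 and 7 below, and with 1 interval wholly above 1 and 3 wholly below. The receptors Rarg and Rarb were 1.39-fold lower (1.23 to 1.57) and 1.28-fold lower (1.11 to 1.48) and not called. The highest member, Aldh1a1, had a log2 ratio of 0.22. Interferon-induced genes had 0 of 21 called, although 19 had a ratio below 1 and for 14 the whole interval lay below 1 (median -0.27), with Isg15 1.54-fold lower (1.23 to 1.93). Glucocorticoid-responsive genes had 0 of 14 called and 12 ratios below 1 (median -0.18). Core clock genes had 0 of 19 called (median -0.05), with Arntl, the clock activator, at 1.47-fold (1.15 to 1.89) and its repressor Per2 1.34-fold lower (1.18 to 1.51), and immediate early genes had 0 of 20 called (median 0.06). Unfolded protein and heat shock genes (18, median 0.07) and antioxidant enzymes (16, median 0.07) had 0 calls. The remaining marker lists were mostly below 1 CPM: 4 of 11 neutrophil and mast cell genes were tested (median -0.13), 4 of 10 epicardial (median 0.12), 6 of 10 Schwann and neuronal (median -0.06) and 3 of 10 skeletal muscle genes (median -0.11), with Acta1 as the 1 call.

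Of the other receptors for extracellular nucleotides none was called, against 0.445% of all genes. Among 12 tested P2 and adenosine receptors P2ry6 was the 1 call, and 5 more list members had a mean under 1 CPM. P2ry2, a receptor for UTP and ATP, was at 34.1 CPM in WT and 41.8 CPM in KO, 1.27-fold (1.16 to 1.39), P2ry14, a receptor for UDP and UDP-sugars, 1.28-fold lower (0.983 to 1.67), and P2ry13, a receptor for ADP, at 1.57-fold (1.07 to 2.31). The enzymes and channels that release and clear nucleotides had 0 of 13 tested genes called (median -0.06).

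Chromosome 7, which carries P2ry6 (ENSMUSG00000048779, GRCm38 chromosome 7, 100937630 to 100974649), held 18 of the 58 called genes. That is 1.83% of its 982 tested genes, against 0.332% (40 of 12059) elsewhere. Among 101 tested genes within 5 Mb of the start of P2ry6, P2ry6 left out, 7 were called (6.93%), and beyond 40 Mb 1 of 505 was (0.198%). Of the 18, 12 were called the same way under isoproterenol, in libraries the saline pair does not share, against 9 of the 40 elsewhere.

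The largest ratios near P2ry6 were in an antiviral gene family. Of 29 tested genes in a list of Trim genes and neighbours of P2ry6, 2 were called higher and 6 lower, against 0.245% and 0.199% of all genes (median -0.05). The lower ones include P2ry6 itself, the gene knocked out, so that call is no finding about its neighbours. The higher ones are Ucp3 and Plekha7, the latter 15.2 Mb away. Trim12a, a member of the Trim5 group of ubiquitin ligases, stood at 8.50 CPM (218 reads) in WT and at 0 reads in KO saline, at least 63.0-fold lower from a floor of 3 reads (50.8-fold by the counting interval, which takes in the error of the WT reads), and it was at 11.5 CPM and 0 reads under isoproterenol. Its neighbour Trim5 went from 51 reads to 3, 12.7-fold lower (4.76 to 73.8). Trim30d went from 3.74 to 0.653 CPM, 5.39-fold lower (3.2 to 10.3), and Trim34a from 5.69 to 2.26 CPM, 2.42-fold lower (1.76 to 3.41). Within the same cluster Trim12c stood at 16.1 and 20.5 CPM, 1.32-fold (1.15 to 1.51), Trim30a at 17.6 and 17.0 CPM, and Trim6 at 1.64 and 1.44 CPM, and these were not called. Trim5 shares 36.3% and Trim34a 39.8% of their 50-base stretches with other genes, chiefly Trim12c and Trim34b, so reads may be split among copies.

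Further along the chromosome Gvin1, a large interferon-inducible GTPase, went from 55 reads to 0, at least 15.9-fold lower from the same floor (12.5-fold by the counting interval). It shares 99.2% of its 50-base stretches with copies such as Gm4070, so its value is uncertain. Plekha7, a protein of adherens junctions 15.2 Mb from P2ry6, stood at 5.62 CPM in WT and 22 CPM in KO saline and at 5.65 and 28.7 CPM under isoproterenol, 4.05-fold higher (3.36 to 4.92) in the saline pair. Aqp8, a water channel, went from 2.73 to 7.75 CPM, 2.92-fold higher (2.21 to 3.93), and Cyp2e1, an ethanol-oxidizing cytochrome, from 6.51 to 2.61 CPM, 2.4-fold lower (1.79 to 3.3). Hbb-bt, an adult beta globin gene, went from 29.8 to 10.9 CPM, 2.63-fold lower (2.28 to 3.05), while its twin Hbb-bs, with which it shares 58.3% of its 50-base stretches, went from 169 to 127 CPM, 1.28-fold lower (1.22 to 1.35). All 7 tested erythroid genes had a ratio below 1 (median -0.24), with 1 call, Hbb-bt, and their summed level was 317 CPM in WT and 237 CPM in KO. The part of the blood left in the hearts in the Hbb-bt value was not tested. Ucp3 and Thrsp, described with the metabolic genes, lie 0.465 and 3.52 Mb from P2ry6. Strain and allele markers of the flanking region were not measured, so an effect of the missing receptor and sequence carried along with the null allele cannot be told apart here.

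**Figure D4:**
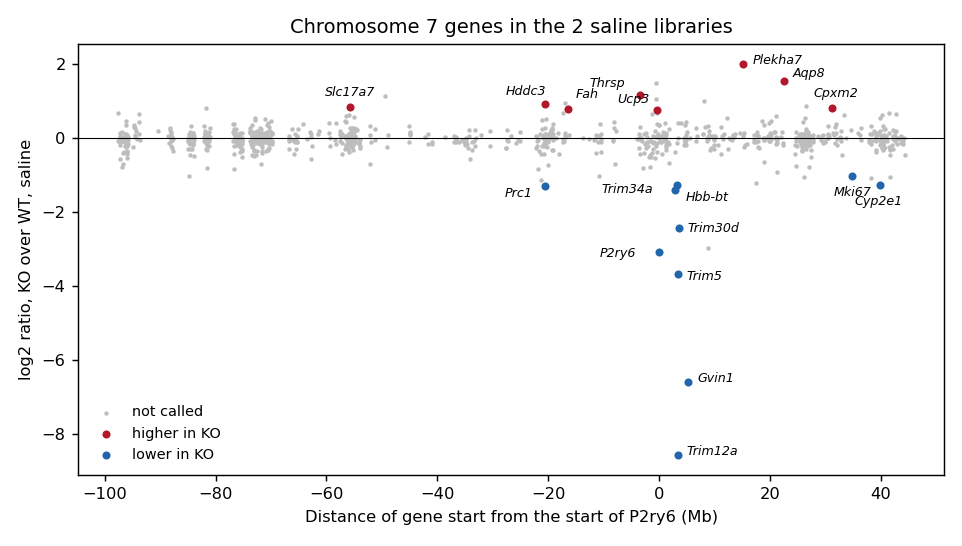
log2 ratio of KO over WT under saline (vertical) for the 982 tested genes of chromosome 7, by the distance of the gene start from that of P2ry6 in Mb (horizontal), with called genes in red (8 higher) and blue (10 lower) and the others in grey. Trim12a and Gvin1 have 0 reads in KO and are drawn at the ratio with 0.5 added to each count, which is no bound, and the lowest points lie within 6 Mb of P2ry6.

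The gene with the largest ratio among those higher in KO was a processed pseudogene. Rps13-ps1 (chromosome 8, 87047689 to 87048226), an intronless copy of the ribosomal protein gene Rps13, had 5 reads in WT and 220 reads in KO saline, and 2 and 355 reads under isoproterenol. The KO saline library was 46.3-fold higher (21.4 to 158). Rps13 itself, which lies on chromosome 7 at 116331505 to 116334195, next to Plekha7, had 2791 reads in WT and 2041 in KO saline, 1.18-fold lower (1.12 to 1.25). The 456 bases of its coding sequence align to the pseudogene with 2 mismatches (99.56% identity), T411C and A429G, with the base of Rps13 first and positions counted from 1 at its coding start. Both fall in the last 60 coding bases, shown with the differing bases in capitals, from GENCODE M21 on GRCm38, coding positions 397 to 456 of Rps13 and transcript positions 428 to 487 of the pseudogene.
Rps13: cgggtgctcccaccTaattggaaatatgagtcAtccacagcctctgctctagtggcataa
Rps13-ps1: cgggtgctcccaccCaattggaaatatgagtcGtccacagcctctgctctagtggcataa
Which of these bases the KO reads carry was not measured here. The value of Rps13-ps1 is therefore uncertain as a level of that locus.

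Another 6 called genes share most of their sequence with a second gene, so that their ratios are uncertain in the same way: Gm23935, Rnaset2b, Gm14121, Gvin1, Hbb-bt and Dynlt1b have 55.6% to 100% of their 50-base stretches in another gene. Gm23935, annotated as a miRNA gene inside Zc3h7a on the opposite strand, went from 14.3 to 68.4 CPM, 4.93-fold higher (4.4 to 5.55). Rnaset2b, an RNase, went from 2.89 to 6.66 CPM, 2.38-fold higher (1.8 to 3.19), and its near copy Rnaset2a from 4.80 to 8.45 CPM, 1.82-fold (1.44 to 2.3) and not called. For 33 of the 58 called genes no such stretch lies in another gene.

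The isoproterenol pair, which shares no library with the saline pair, held 801 called genes (6.14%), 555 higher (4.26%) and 246 lower (1.89%) in KO. Its median absolute log2 ratio was 0.22, against 0.11 under saline. Of the 32 genes higher under saline 11 were higher there as well, which is 34.4% of the saline list and 1.98% of the isoproterenol list. Of the 26 lower genes 10 were lower there, 38.5% and 4.07% of the lists. Another 31 genes were called under saline alone by this rule, and 6 were called in opposite directions. Across all 13041 genes the log2 ratios of both pairs had a Pearson r of 0.09, a description over genes, which are not independent.

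Outside chromosome 7 the 9 genes called the same way in both pairs are Rps13-ps1, Igha, Igkc, Acta1, Nppb, Abat and Gm14121 (higher) and Pck1 and Cidec (lower). Abat, which breaks down the transmitter GABA, went from 12.0 to 21.2 CPM under saline, 1.83-fold higher (1.58 to 2.12), and was 1.73-fold higher under isoproterenol. Nppb was 1.8-fold higher in KO under saline and 4.66-fold under isoproterenol, and Acta1 2.09-fold and 3.02-fold. Ankrd1 was 1.74-fold higher under saline and 1.48-fold under isoproterenol, below the threshold there. On chromosome 7 the same holds for Plekha7, Aqp8, Hddc3 and Fah (higher) and for P2ry6, Trim12a, Trim5, Trim30d, Trim34a, Gvin1, Hbb-bt and Cyp2e1 (lower). Hddc3, a nucleotide hydrolase, went from 7.02 to 13 CPM, 1.91-fold (1.58 to 2.31), and Fah, the last enzyme of tyrosine breakdown, from 19.2 to 32.0 CPM, 1.72-fold (1.54 to 1.94), a call that total-count scaling ended.

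**Figure D5:**
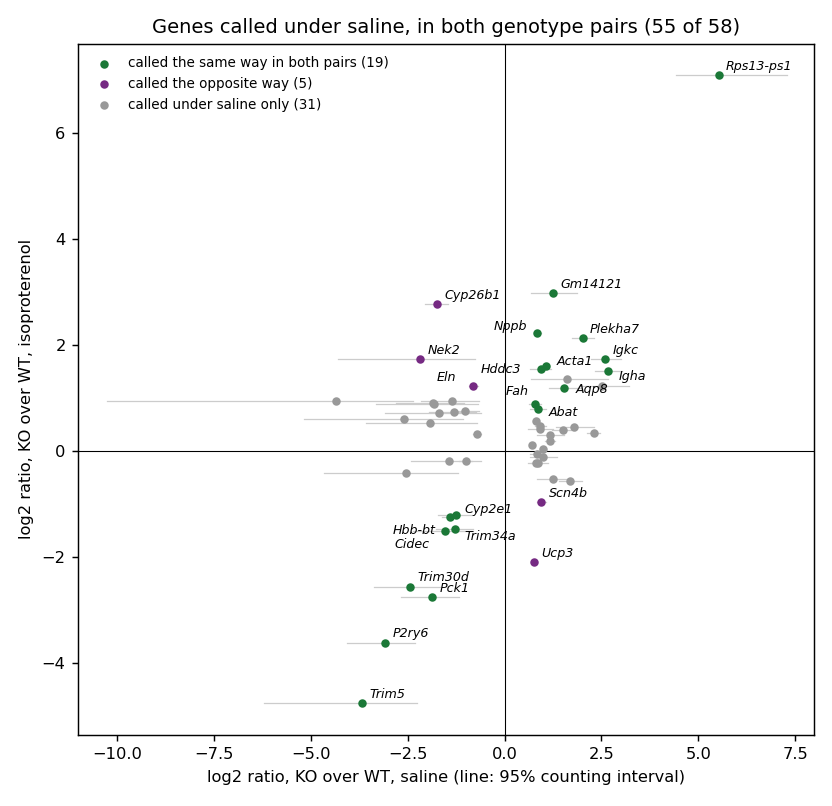
log2 ratio of KO over WT under saline (horizontal, with its 95% counting interval as a line) and under isoproterenol (vertical) for 55 of the 58 genes called under saline. Trim12a and Gvin1, which have 0 reads in KO, and a gene not reported here are left out. Green points were called the same way in both pairs (19), purple points in opposite directions (5) and grey points under saline alone (31), and Rps13-ps1 lies farthest from the origin.

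A fit over all 4 libraries with terms for genotype and treatment leaves 1 residual degree of freedom, and no other fit here leaves any. That residual is the interaction of genotype and treatment, not a spread among replicate libraries of a group. Variance is shared across genes as well, so the p-values do not measure the spread between mice. By limma on log2(CPM + 1) 15 of 13041 genes had a genotype term with an adjusted p under 0.05 (0.115%), 7 higher and 8 lower in KO, and 13 of them were called the same way in both pairs. The lowest were Rps13-ps1 and Trim12a (adjusted p = 3.85e-07 by limma for each), then Plekha7 (0.000155 by limma, with a log2 difference of 1.98, SE 0.23). P2ry6 and Igkc followed (0.000682 each by limma), then Igha (0.000782), Acta1 (0.000999) and Nppb (0.00381). Gvin1, Trim30d, Trim5 and Hbb-bt were at 0.015 and Pck1 at 0.024 by limma. Dgat2, the triglyceride-forming acyltransferase, and Serpina3n, a secreted protease inhibitor, also passed by limma (0.0234 and 0.0381) although under saline they were 1.43-fold lower (1.38 to 1.48) and 1.54-fold higher (1.26 to 1.91) and not called. On recovered reads edgeR called 3 genes, Rps13-ps1, Trim12a and Plekha7, each with an adjusted p of 0.023, while Nppb and Acta1 were at 0.998 and 0.955 by edgeR.

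Near the threshold, the last genes called higher were Fah, Gnas and Cnksr1, with lower bounds of 1.54, 1.53 and 1.51-fold, all lost with total-count scaling, and the first not called were Bdh1, Pdk4 and Rnaset2a, with lower bounds of 1.46, 1.44 and 1.44-fold. The last called lower were Dynlt1b, Myl4 and Ccnb1, with bounds of 1.53, 1.52 and 1.51-fold, and the first not called were Col3a1, Gm21967 and Car3, with bounds of 1.497, 1.49 and 1.49-fold. The remaining called genes, named by none of the groups, range from 1.63-fold higher for Ptgds, a prostaglandin D synthase, to 3.04-fold for Exd1, and include Cdh4, a cadherin, at 2.84-fold (2.32 to 3.5), Nrtn, a neurotrophic factor, at 2.25-fold (1.77 to 2.88), Cpxm2, Scand1 and Slc17a7. Among the lower ones Lpar3, a receptor for lysophosphatidic acid, went from 30 to 4 reads, 5.87-fold lower (2.29 to 25.4), and Mthfd1l, a mitochondrial folate enzyme, was 2.56-fold lower (1.58 to 4.42). In all 10 of the 26 lower calls rest on fewer than 10 reads in the KO library.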

How the data were processed

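Ventricle mRNA libraries were made with the TruSeq Stranded mRNA kit, per the labels' protocols, 1 library in each of 4 groups. The authors deposited 1 table of CPM values, counted with HTSeq on GRCm38.p4 (mm10) per the submitters' processing notes; the aligner, annotation release and strand setting are not stated in these sources. A column named by genotype only was taken as saline, since the other columns name isoproterenol. In each column 100% of nonzero values equal a whole number of reads within 0.01 (1 read is worth 0.039, 0.0435, 0.0483 and 0.0533 CPM in WT saline, KO saline, WT isoproterenol and KO isoproterenol), so reads were recovered and used for intervals. TMM factors (edgeR 4.0.16) over the 4 libraries, in the same order, were 0.999, 0.967, 0.945 and 1.09, and mitochondrial transcripts took 24.9%, 26.3%, 28.9% and 22.5% of reads. Ratios had 0.5 added to each count and an exact conditional (Clopper-Pearson) 95% interval; a library with 0 reads was set to a floor of 3 reads. The reads carry no molecular identifiers, so they do not count independent molecules.

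The additive test used limma 3.58.1 (mean-variance trend) on log2(CPM + 1), libraries unscaled, with Benjamini-Hochberg adjustment at 0.05; edgeR's quasi-likelihood test (3 genes) and, added after the data were seen, DESeq2 1.42.0 were run on recovered reads. The calculations were tested on simulated data. Positions and types came from GENCODE M21 by Ensembl ID (13006 of 13041 genes), promoters from RefSeq (GRCm38.p6). Named genes are the 15 higher and 15 lower with the bound farthest from no change, those called the same way in both pairs, P2ry6, members of 42 lists (656 genes, 576 tested) and genes at the threshold or grouped by chromosome or type; Rps13, Rnaset2a, Dgat2, Serpina3n and the other called genes named were chosen after their values were seen. The members and lists were chosen with earlier results of these data known. The results of a few genes are not reported here.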

Additional observations from a re-analysis of the deposited data

Results flagged for a closer look

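There were 6 genes called in opposite directions, 5 of them described here, in the saline and the isoproterenol pair, which share no library. The difference between the pairs was not tested, since the design holds no error term for it. Higher in KO under saline and lower under isoproterenol were Scn4b, with a log2 ratio of 0.95 under saline and -0.96 under isoproterenol, and Ucp3 (0.76 and -2.09). Lower in KO under saline and higher under isoproterenol were Nek2, a mitotic kinase (-2.18 and 1.73, with 4 reads in KO under saline), Cyp26b1 (-1.75 and 2.77) and Eln (-0.81 and 1.22). Cyp26b1 stood at 19.6 CPM in WT and 5.62 CPM in KO under saline, and at 2.03 CPM in WT and 16.1 CPM in KO under isoproterenol, so each genotype had its high level under a different treatment.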

How the results depend on the processing

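The counts under saline (32 higher, 26 lower) were 29 and 31 with total-count scaling, which kept 55 of the 58 calls, lost Cnksr1, Fah and Gnas and added Angptl7, Car3, Col3a1, Gm21967 and Myo7a. They were 31 and 29 without mitochondrial genes in the total, and 32 and 26 with DESeq2 size factors, with TMM over the saline libraries and with 2 added to each count. A filter at a mean of 10 reads gave 39 and 31 of 14301 genes. A mean CPM of at least 5 gave 25 higher and 8 lower, and an interval beyond 2-fold gave 13 and 12. The limma count of 15 was 23 at a mean CPM of at least 5, 195 with every gene above 0 in 1 library, 19 with 0.5 added, 3 by edgeR and 11 by DESeq2. No called gene changed sign under an alternative. No paired analysis was possible because each group holds 1 library and the labels give no replicate numbers, and for the same reason no library could be left out of the saline pair. Depth limits the lower calls most, since 10 of them rest on fewer than 10 KO reads. At a mean CPM of at least 5 the list medians that moved by over 0.1 were immunoglobulin (0.99 to 0.19), adipocyte (-0.61 to 0.14), skeletal muscle (-0.11 to 0.48, 2 genes), valve (-0.55 to -0.19), cell cycle (-0.45 to -0.21), Schwann (-0.06 to 0.08, 2 genes) and atrial (-0.44 to -0.33). At a mean of 10 reads immunoglobulin went to 0.84 and skeletal muscle to -0.01.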
